A study of Mus musculus with 8 samples.

Results

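Nnt encodes the nicotinamide nucleotide transhydrogenase of the inner mitochondrial membrane. Its RNA was followed with every non-control probe that carries the symbol Nnt in the authors' deposited table, which gave 3 of 40646 probes, or 1 gene of 21180 named genes. The gene was chosen with the contrast between the genotypes already known, so its differences below are descriptions without a test.

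RNA of whole liver was measured in 4 miR-223 knockout (miR-223KO) samples and 4 wild-type (WT) samples. Both groups were labelled male and C57BL/6J and had eaten a high-fat diet for 3 months, and the labels give no age, no control diet and no account of how the knockout line was bred relative to the WT mice. The knockout lacks miR-223, which myeloid cells make in large amounts, and the study's title places the comparison in steatohepatitis and liver cancer. Every sample was hybridised once, its RNA in Cy5 beside the same RNA of mixed mouse tissues in Cy3, on Agilent 2-colour arrays that lay on 2 slides with 2 samples of each group on each. Since separate mice are not stated in the labels, p-values cover only the spread of these samples, which may be technical.

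The transhydrogenase passes a hydride from NADH to NADP+ and draws on the proton gradient across the inner membrane to do so, which makes NADPH inside mitochondria. That NADPH feeds the glutathione and thioredoxin systems, which remove peroxides, and it is also made there by isocitrate dehydrogenase, malic enzyme and folate enzymes. The gene is known for differing between closely related mouse strains: C57BL/6J carries a deletion of several exons in Nnt that C57BL/6N lacks. Whether a probe lies within the deleted exons was not analysed here.

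The probe letters are shown because all Nnt values rest on these 3 oligos, and the mature miR-223 sequences because the knockout removes them. In the microRNAs the capitals mark the seed, bases 2 to 8 from the 5′ end, and the sequences are those of RefSeq (GRCm38.p6). The probes carry no capitals. The first of them is given whole and the other two by their first 30 of 60 bases.

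A_51_P113399: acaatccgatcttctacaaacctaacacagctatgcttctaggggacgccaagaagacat
A_51_P113395: cccaaaaaagcaagagtattttgtccacag
A_52_P395228: ccaaatctgcagcaggttatcagccttcac
mmu-miR-223-3p: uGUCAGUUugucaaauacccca
mmu-miR-223-5p: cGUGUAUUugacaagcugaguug

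The 3 probes share their gene but not their letters, and their G and C content was 45.0%, 43.3% and 38.3% in the order above. The longest run that any of them shared with a probe of another gene was 14 bases (A_51_P113399 with a probe of Fam13a), and it was 13 bases for each of the others. The DNA complement of the miR-223-3p seed, AACTGAC, searched on the probe strand, was in 0 of the 3 Nnt probes and in 0.37% of 40554 probes of the table with a sequence. The complement of the miR-223-5p seed, AATACAC, was in 0 of the 3 and in 0.355%. These letters cover only the probes and not the rest of the transcript. The RefSeq table places Nnt on chromosome 13 with 1 transcript.

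Nnt RNA was well measured in all liver samples of both genotypes. All 3 probes were well above background in both channels on all 8 arrays, and none was saturated. In Cy5 the share of probes brighter than the Nnt probe was 8.27% for A_52_P395228, 8.42% for A_51_P113395 and 11.0% for A_51_P113399. Across the arrays, 49.5% to 69.8% of spots were well above background in Cy5, and 2.00% to 5.67% carried an outlier flag. The hepatocyte markers were all above background, 7 of 7. Their mean log2 ratios against the reference ran from -0.02 (Tat) to 2.01 (Alb, serum albumin). Ttr (0.15), Cps1 (0.23) and Fgb (0.42) lay nearer the reference than Apoa1 (1.05) and Ahsg (1.03).

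Values below are log2 ratios of liver over reference after background correction and loess, unless called a signal or a fold. Probe A_52_P395228 stood at 0.56, 0.40, 0.06 and -0.94 in miR-223KO replicates 1 to 4, against -1.07, -1.30, -1.22 and -0.85 in WT replicates 1 to 4. The first 3 miR-223KO samples lay above every WT sample, and miR-223KO replicate 4 lay among the WT values. The mean was 0.02 ± 0.67 in miR-223KO and -1.11 ± 0.20 in WT liver (SD, n = 4 each), a difference of 1.13 (SE 0.27), or 2.18-fold. The scanner flagged the spots of miR-223KO replicates 1, 3 and 4 as non-uniform, in Cy5, in both channels and in Cy3. Without flagged spots only miR-223KO replicate 2 was left against 4 WT samples, the difference was 1.51 and the probe missed the minimum of 3 values per group, so it did not enter the fit across genes.

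Probe A_51_P113395 had no flagged spot and stood at 0.96, 1.21, 1.13 and 0.20 in miR-223KO, against -0.59, 0.00, -0.05 and 0.43 in WT liver. Again miR-223KO replicates 1, 2 and 3 lay above all WT samples, while miR-223KO replicate 4 lay below WT replicate 4. The mean was 0.88 ± 0.46 in miR-223KO and -0.05 ± 0.42 in WT (SD, n = 4 each), a difference of 0.93 (SE 0.25), or 1.90-fold.

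Probe A_51_P113399, also without a flag, stood at 0.45, 0.61, -0.57 and -0.15 in miR-223KO, against -1.24, -0.58, -0.25 and 0.54 in WT liver. Here the groups lay across each other, and only miR-223KO replicate 2 was above all WT samples. The mean was 0.09 ± 0.55 in miR-223KO and -0.38 ± 0.74 in WT (SD, n = 4 each), a difference of 0.47 (SE 0.33), or 1.38-fold, with a spread within each group larger than the difference.

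**Figure D1:**
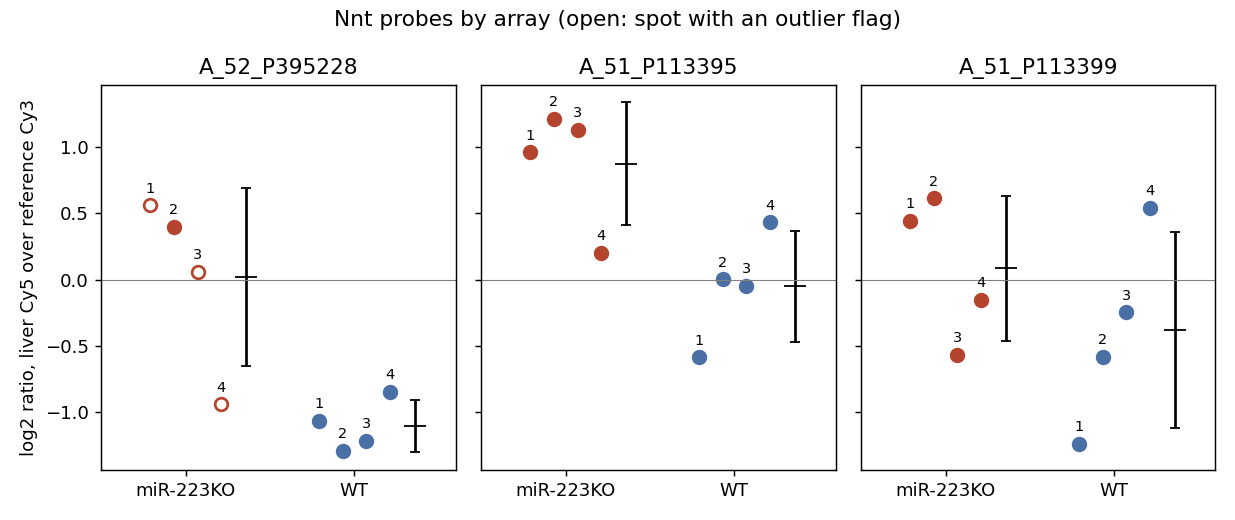
Log2 ratio of liver Cy5 over reference Cy3 for the 3 Nnt probes, one panel a probe, with miR-223KO samples in red and WT samples in blue. Points are samples numbered by replicate, open points are spots with an outlier flag, and the bars give mean and SD (n = 4). In the first panel miR-223KO replicate 4 (-0.94) sits among the WT samples, and in the third the groups overlap widely.

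The values that the authors deposited put the probes in the same order of size. The authors' deposited table gives log2 fold changes of 1.24 for A_52_P395228, 1.03 for A_51_P113395 and 0.61 for A_51_P113399, with linear folds of 2.36, 2.04 and 1.53. For A_52_P395228 that table lists 0.82, 0.53, 0.26 and -0.75 in miR-223KO, against -1.14, -1.22, -0.96 and -0.77 in WT liver. There the groups did not overlap, by the narrow step between miR-223KO replicate 4 and WT replicate 4. Of the 3 Nnt probes, 1 was without overlap in the authors' deposited table, where 3.08% of all probes were, and 0 were in the values computed here, where 2.77% of 25693 probes were. The gene was chosen on this contrast, so nothing is read from these counts.

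The samples within each genotype were far from uniform, and the probes ordered them in part alike. The mean of the 3 probes was 0.66, 0.74, 0.21 and -0.30 in miR-223KO, against -0.97, -0.63, -0.50 and 0.04 in WT liver. WT replicate 4 was the highest WT sample on all 3 probes. By this mean miR-223KO replicate 4 lay below WT replicate 4, and the difference of the group means was 0.84 with that sample and 1.05 without it. Without miR-223KO replicate 4 the difference was 1.45 for A_52_P395228, 1.15 for A_51_P113395 and 0.55 for A_51_P113399. Leaving out other samples lowered it, at the least to 0.95, 0.75 and 0.18 for the same probes, with flagged spots kept. Ctse, which encodes cathepsin E and was the 1 gene called higher in miR-223KO, read 1.17, 0.74, 1.39 and 0.54 in miR-223KO. In WT liver it read -2.13, -1.66, -1.32 and -1.84. Ctse was called on this same contrast, so nothing is read from where miR-223KO replicate 4 stands in it. The hepatocyte marker list, with 7 of 7 markers above background, had a mean log2 ratio of 0.25 to 0.83 in miR-223KO and 0.62 to 1.18 in WT liver. Its lowest value was that of miR-223KO replicate 4 and its highest that of WT replicate 4. The lists of cholangiocyte markers (4 of 4 above background), exocrine pancreas markers (3 of 5, Prss2 and Pnlip not) and kidney and adrenal markers (2 of 5, Umod, Star and Cyp11a1 not) had the same lowest and highest samples. The cholangiocyte list spanned -0.53 to -0.08 in miR-223KO and -0.32 to 0.34 in WT liver, the pancreas list -0.04 to 0.18 in miR-223KO and 0.06 to 0.49 in WT liver, and the kidney and adrenal list -0.24 to 0.13 in miR-223KO and -0.17 to 0.61 in WT liver. The macrophage and Kupffer cell list (6 of 6 above background) spanned -0.21 to 0.49 in miR-223KO and -0.44 to 0.55 in WT liver. In it Csf1r, Adgre1 and Cd68 differed by 0.54, 0.51 and 0.49, and Clec4f, Timd4 and Marco by 0.23, 0.21 and -0.04. None of them passed in limma. The adipocyte list (2 of 5, Lep, Plin1 and Retn not) spanned -0.82 to -0.18 in miR-223KO and -0.41 to 0.19 in WT liver. The neutrophil list (3 of 5, S100a8 and Elane not) spanned -0.02 to 0.37 in miR-223KO and -0.13 to 0.05 in WT liver, and the lymphocyte, endothelium and stellate cell lists overlapped between the groups too. The marker differences come from the limma fit with flagged spots kept. In that fit 0 markers of the 10 lists passed the adjusted threshold, as against 1 of all 17803 genes and unnamed probes. With so few calls over all genes, nothing is read from the 0. The part of these lists in the Nnt values was not tested. In whole liver, fewer cells of a type and less RNA per cell cannot be told apart.

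The size of the difference also differed between the slides. Slide and samples cannot be told apart here, since miR-223KO replicate 4 and WT replicate 4 both lay on slide 2. Slide 1 held replicates 1 and 2 of both groups, slide 2 held replicates 3 and 4, and each slide was 1 scan. For A_52_P395228 the difference was 1.66 on slide 1 and 0.59 on slide 2, with flagged spots kept. For A_51_P113395 it was 1.38 on slide 1 and 0.47 on slide 2. For A_51_P113399 it was 1.44 on slide 1 and -0.51 on slide 2, so this probe had no common direction across slides. In the authors' deposited values the same probe gave 1.17 on slide 1 and 0.05 on slide 2.

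The channels were also read apart, since a ratio can move through either dye. In the liver channel, Cy5, the normalised signal was higher in miR-223KO than in WT liver by 1.27 for A_52_P395228, 0.74 for A_51_P113395 and 0.70 for A_51_P113399. In the reference channel, Cy3, which held the same RNA on every array, the differences were 0.14, -0.18 and 0.23 for the same probes. The liver signal of A_52_P395228 averaged 10.99 ± 0.76 in miR-223KO and 9.72 ± 0.23 in WT liver (log2, SD, n = 4 each), and its reference signal 10.97 ± 0.18 on miR-223KO arrays and 10.83 ± 0.06 on WT arrays. For A_51_P113399 the reference signals alone spread from 9.83 to 10.40 on miR-223KO arrays and from 9.52 to 10.17 on WT arrays. Before normalisation the median Cy5 spot intensity of A_52_P395228 was 2198.5, 1636, 1282 and 798 in miR-223KO, against 1063, 564.5, 252 and 321 in WT liver. The arrays themselves differed in brightness: the median Cy5 intensity of all spots was 127, 93, 118 and 135 on miR-223KO arrays, against 187, 137, 87 and 79.5 on WT arrays, so WT replicates 3 and 4 were the dimmest. The Cy3 intensity of A_52_P395228 was 2356, 2812.5, 3814 and 3472 on miR-223KO arrays, against 3287.5, 2890, 2907 and 3353 on WT arrays.

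**Figure D2:**
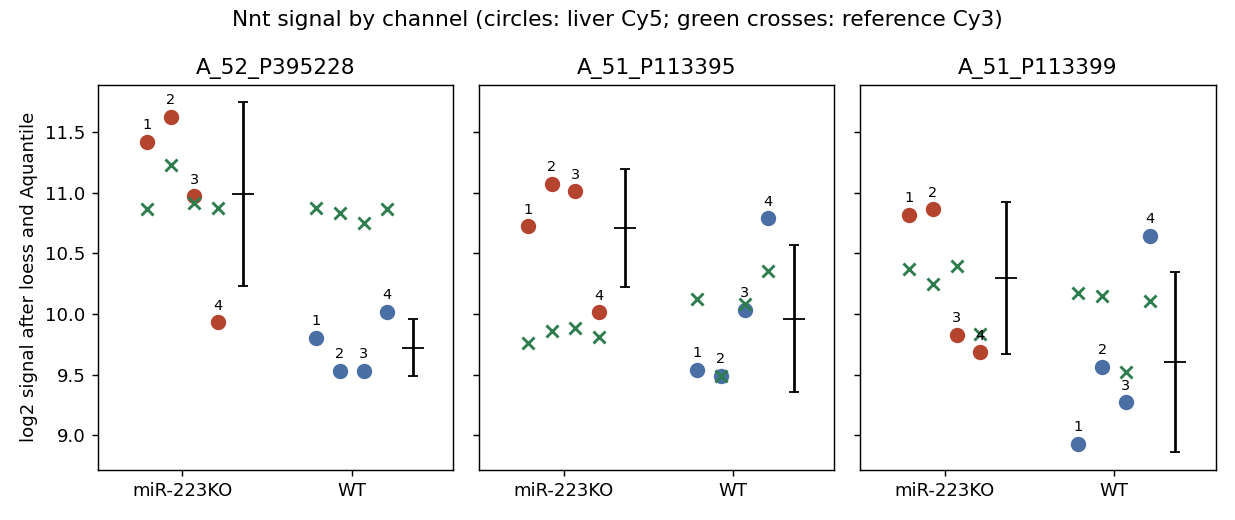
Log2 signal of the 3 Nnt probes by channel after loess and Aquantile, which gives all arrays 1 distribution of mean signals. Circles are liver Cy5 (miR-223KO red, WT blue, numbered by replicate), crosses are the Cy3 reference on the same array, and bars give mean and SD of Cy5 (n = 4). The crosses of A_52_P395228 lie between 10.75 (WT replicate 3) and 11.23 (miR-223KO replicate 2), and its circles between 9.53 (WT) and 11.63 (miR-223KO replicate 2).

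Changes in the processing moved the sizes more than the direction. Over the alternatives counted, the difference was above 0 in 16 of 16 for A_52_P395228, in 18 of 18 for A_51_P113395 and in 17 of 18 for A_51_P113399. Several of these could not change the value, so the counts overstate the number of checks. For A_51_P113395 and A_51_P113399, keeping flagged spots and the slide and replicate blocks returned the same difference. For A_52_P395228, so did leaving out a miR-223KO sample whose spot was flagged. The exception was slide 2 alone for A_51_P113399 (-0.51). Aquantile, which leaves ratios as they are, and the single channels are not counted. Leaving out each sample in turn gave 0.75 to 1.15 for A_51_P113395, 0.18 to 0.78 for A_51_P113399 and, with flagged spots kept, 0.95 to 1.45 for A_52_P395228. These alternatives share the same 8 arrays, and most of those for A_52_P395228 hold only its 1 unflagged miR-223KO value.

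**Figure D3:**
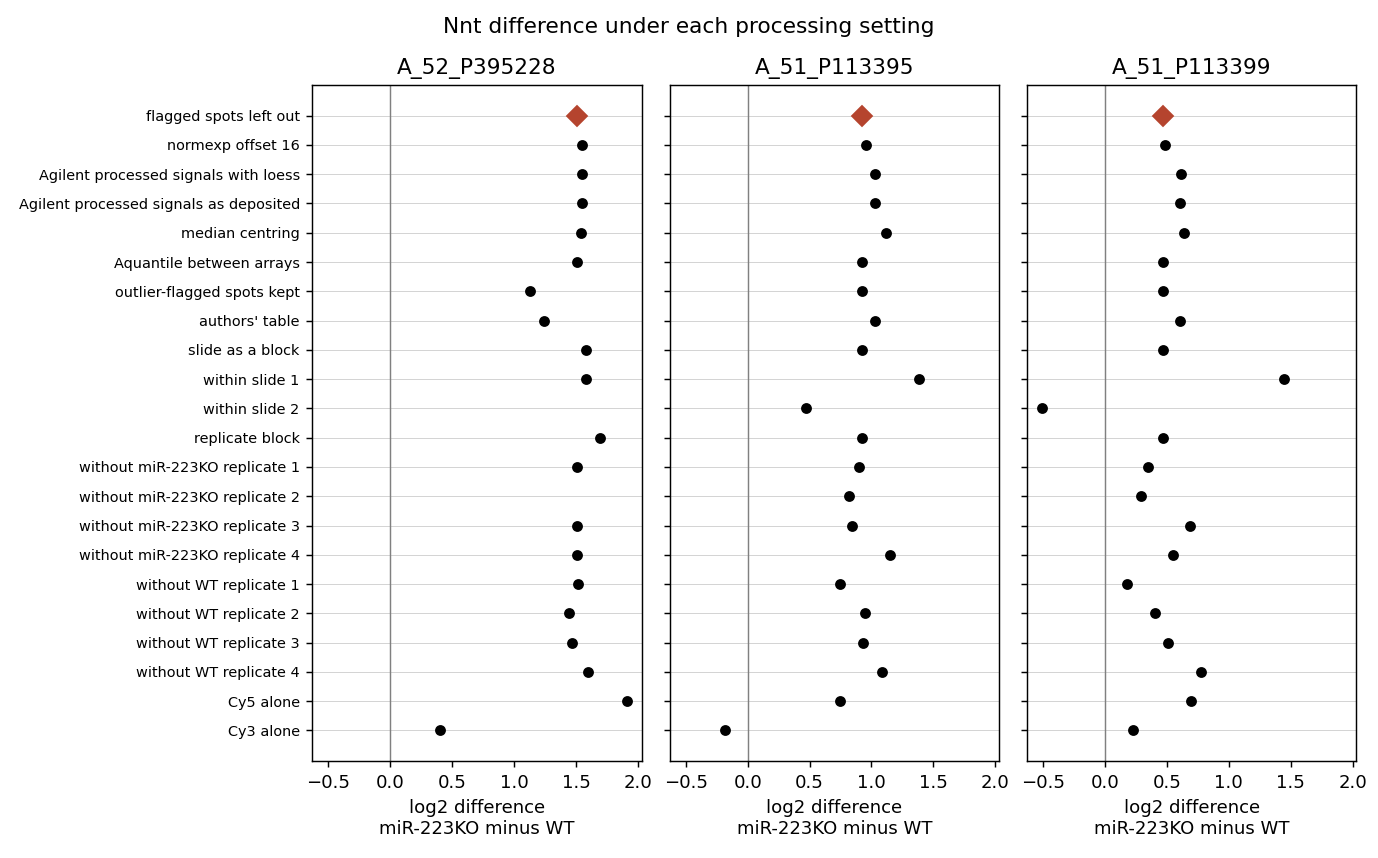
Difference of Nnt, miR-223KO minus WT on the log2 scale, under each processing setting (rows) for the 3 probes. The diamond is the value with flagged spots left out, and a missing point means that no value could be had, as for A_52_P395228 on slide 2. Except where flagged spots enter (spots kept, authors' table), A_52_P395228 has only 1 miR-223KO sample. The slide 2 point of A_51_P113399 lies below 0.

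The same fit over all genes gave the background for the genes around Nnt. With limma, 2 of 16776 genes and unnamed probes (0.0119%) had an adjusted p under 0.05, 1 higher and 1 lower in miR-223KO, and 4.66% had an unadjusted p under 0.05. The median difference was -0.01 and the median SE 0.21. Around Nnt, 6 lists were read from the same fit: mitochondrial NADPH supply, mitochondrial NADPH use and peroxide removal, cytosolic NADPH supply, NAD synthesis and sirtuins, inner membrane carriers, and the mitochondrial stress response. Of their 83 members on the array, 51 could be tested. In limma 0 of these 51 passed the adjusted threshold and 2 had an unadjusted p under 0.05. Their differences ran from -0.47 to 0.54 with a median of 0.02, and 27 of 51 were above 0, against 48.2% of all genes. With flagged spots kept 81 could be tested, 0 passed and 5 had an unadjusted p under 0.05, with a median of 0.04 and a range of -0.60 to 0.47. That setting turned the sign of 3 list medians: mitochondrial supply (0.01, then -0.05), mitochondrial use (-0.02, then 0.05) and the carriers. In this limma fit, without flagged spots, no list member named below had an adjusted p under 0.979.

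In the list of mitochondrial NADPH supply, 8 of 12 members could be tested and 4 lay above 0, with a median of 0.01. Not every member of this list makes NADPH itself. Idh2, the mitochondrial isocitrate dehydrogenase, stood at 0.02, 0.43, -0.40 and 0.19 in miR-223KO, against -0.60, -0.28, -0.47 and 0.23 in WT liver. The groups overlapped, and the difference was 0.34 (SE 0.22). Mthfd1l, a mitochondrial folate enzyme that makes formate, differed by 0.39 (SE 0.17) and had an unadjusted p of 0.0335 in limma. Its difference was far larger, 1.48, in the authors' table and 1.38 with Agilent's processed signals and loess, in neither case with an adjusted p under 0.05 in limma (0.714 and 0.619). With a normexp offset of 16 it was 0.54, and the probe was not well above background in Cy5 on all 8 arrays. Aldh1l2, which makes NADPH from formyl folate in mitochondria, differed by -0.34 (SE 0.19), and the mitochondrial malic enzyme Me3 by -0.18 (SE 0.18).

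The list of mitochondrial NADPH use and peroxide removal gave a median of -0.02, with 4 of 8 tested members above 0 and 8 of 16 not tested. Prdx3, a mitochondrial peroxiredoxin, stood at -0.41, -0.15, -0.14 and -0.31 in miR-223KO, all within the span of the WT values, which were 0.38, -0.19, -0.83 and 0.01. Its difference was -0.10 (SE 0.23). Glrx5, a mitochondrial glutaredoxin of iron-sulphur cluster assembly, differed by 0.54 (SE 0.25), and by 1.06 with median centring, which was no call in either.

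NADPH supply outside mitochondria had 5 of 9 tested members above 0 and a median of 0.11. The pentose phosphate enzymes G6pdx and Pgd differed by 0.25 (SE 0.18) and 0.32 (SE 0.18), and G6pdx by 0.57 in the authors' table. Cytosolic malic enzyme, Me1, differed by -0.05 (SE 0.34). None of these 3 passed in limma.

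Among the genes of NAD synthesis and the sirtuins 8 of 14 tested members lay above 0, with a median of 0.03. Nmrk1, a nicotinamide riboside kinase, differed by 0.43 (SE 0.18, unadjusted p = 0.0305 in limma), and Nmnat3, a mitochondrial NAD-synthesising enzyme, by 0.40 (SE 0.26). Of the inner membrane carriers 3 of 9 could be tested, all below 0, with a median of -0.23. With flagged spots kept 8 could be tested, 5 of them above 0, and the median was 0.04. The lowest of them, the ATP-Mg/phosphate carrier Slc25a25, read -0.47 (SE 0.28) on its brightest probe and 0.26 and -0.07 on others. The mitochondrial stress genes had 6 of 9 above 0 and a median of 0.06, and Atf5, a transcription factor of the mitochondrial unfolded protein response, differed by -0.38 (SE 0.26).

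**Figure D4:**
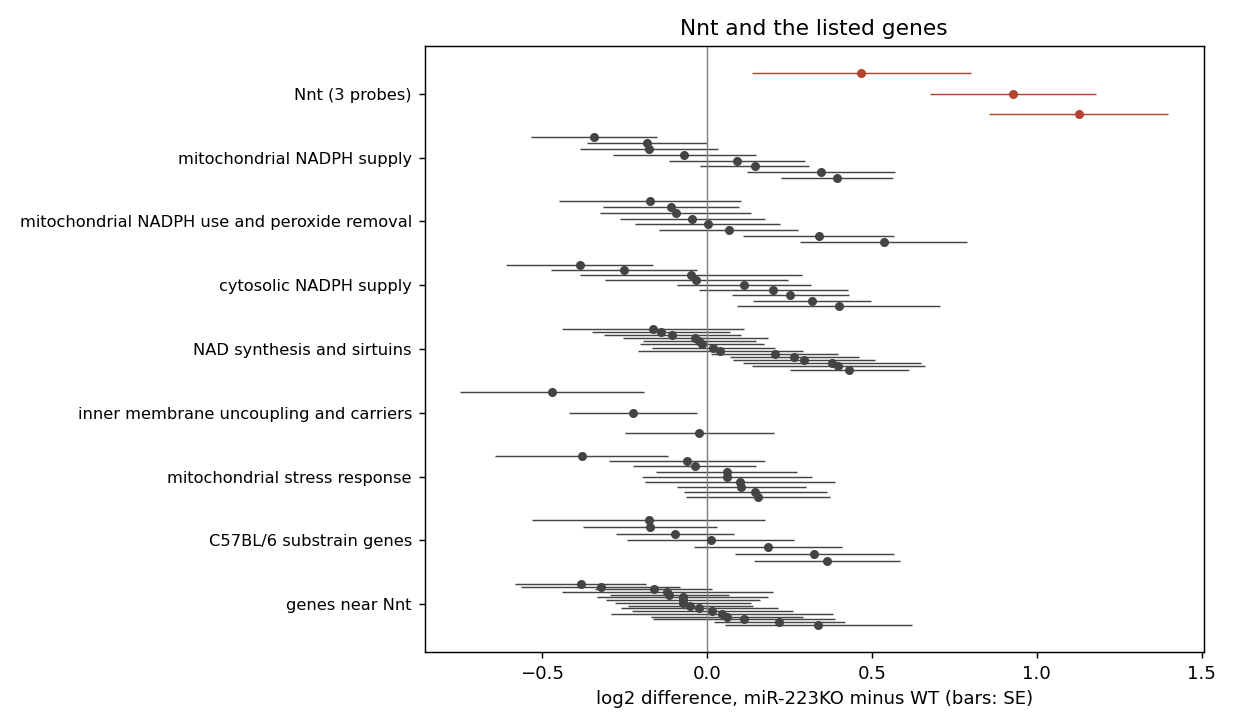
Log2 difference, miR-223KO minus WT, with SE, for the 3 Nnt probes (red, flagged spots kept) and every tested member of the lists (grey, 1 point a gene). The listed genes, drawn without flagged spots, span -0.47 to 0.54 in the 6 NADPH, NAD and stress lists, against 0.47, 0.93 and 1.13 for the Nnt probes, which were chosen with that contrast known. In the authors' table Mthfd1l, at 1.48, was above all Nnt probes. Unlike them, its probe was not well above background in Cy5 on all 8 arrays.

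A further list held genes with known sequence or expression differences between C57BL/6 substrains, since Nnt is one of them. Of its 9 members 7 could be tested, 4 lay above 0 and the median was 0.01. In limma 0 passed the adjusted threshold and 0 had an unadjusted p under 0.05, against 0.0119% and 4.66% of all genes and unnamed probes. Wdfy1, an endosomal protein, stood at 0.12, -0.16, -0.46 and -0.86 in miR-223KO, against -0.40, -1.10, -0.89 and -0.26 in WT liver. The groups overlapped, with a difference of 0.32 (SE 0.24), and a second Wdfy1 probe gave 0.40.

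Genes beside Nnt on its chromosome were read to see whether its neighbours moved too. The RefSeq table (GRCm38.p6) holds 86 genes that start within 5 Mb of the start of Nnt, of which 27 were on the array and 16 could be tested. In limma 0 of the 16 passed the adjusted threshold and 0 had an unadjusted p under 0.05. Over all genes and unnamed probes these shares were 0.0119% and 4.66%. With 16 genes, counts of 0 lie near those shares and cannot show that the neighbours did not move. Their differences ran from -0.38 to 0.34 with a median of -0.06, and 6 of 16 were above 0. Paip1, a regulator of translation at the poly(A) tail and the nearest tested gene on one side, stood at 1.08, -0.36, 0.47 and -0.52 in miR-223KO, against -0.01, -0.09, 0.97 and -0.38 in WT liver. Its difference was 0.05 (SE 0.34), with -0.27 and -0.02 on other probes. Mrps30, a mitochondrial ribosomal protein and the nearest tested gene on the other side, differed by -0.07 (SE 0.21), and Tmem267 by 0.34 (SE 0.28), or 0.71 in the authors' table. The neighbours with the smallest unadjusted p in limma, 4930435F18Rik and Gm20767, were lower in miR-223KO, by -0.38 (SE 0.20) and -0.32 (SE 0.24).

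**Figure D5:**
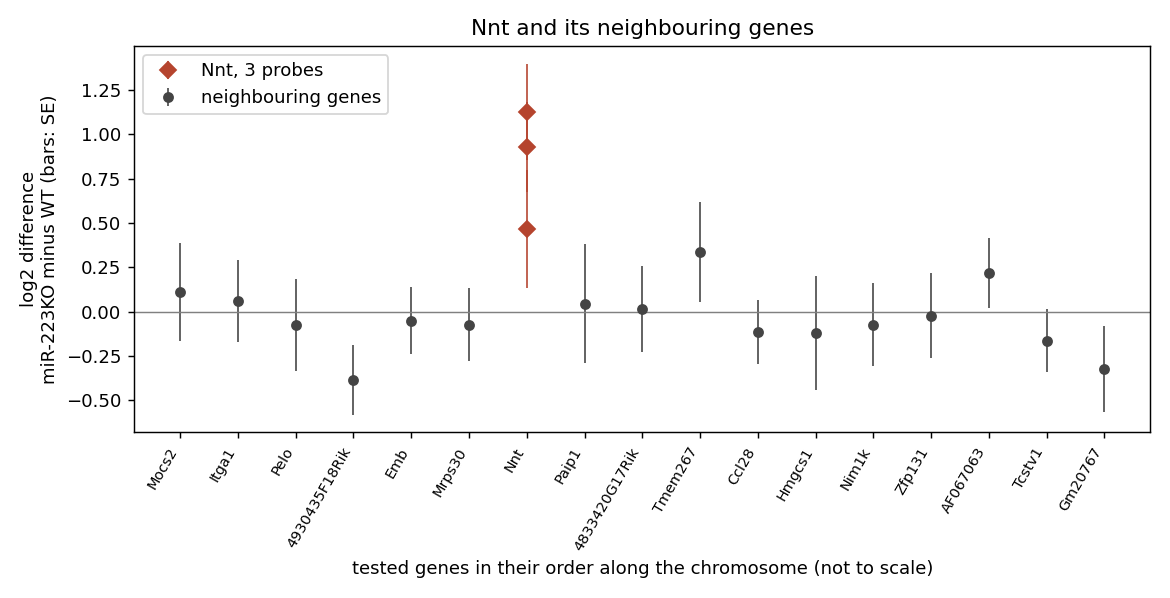
Log2 difference, miR-223KO minus WT, with SE, for Nnt (diamonds, 3 probes, flagged spots kept) and the 16 tested genes around it in their order along the chromosome. The neighbours, drawn without flagged spots, lie between -0.38 and 0.34.

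The genes whose pattern over the 8 arrays was most like that of A_51_P113395, the brightest Nnt probe with a value on every array, were taken from 12892 genes as a description. The highest Pearson correlations over the 8 arrays were those of Hic1 (0.977), Hnrnph3 (0.970), Cdk4 (0.966), Dido1 (0.951) and Ermp1 (0.942). The lowest were those of Olfr1338 (-0.986), Cfhr2 (-0.982), Srsf12 (-0.980), Arhgef10 (-0.965) and Tmem216 (-0.956). All these values share the same arrays, reference and slides. Extremes picked from 12892 genes over 8 arrays can be this large by chance, which was not tested. For A_52_P395228 with flagged spots kept, Hic1 (0.930) and Arhgef10 (-0.925) were also among the 5 highest and 5 lowest. Both probes read the same gene on the same arrays, so nothing is read from this overlap.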

How the data were processed

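Per the file headers, the deposited files of each array give the median intensity of a spot and of its surroundings, and processed signals that are background-subtracted and dye-normalised (Agilent Feature Extraction 12.0.3.1, protocol GE2_1200_Jun14, design 014868, build mm9). Their LogRatio column is the log10 of the ratio of both processed signals, as deposited. The table that the authors made holds a log2 ratio per sample, a log2 fold change and, as a score, a signed linear fold change. It matched the scanner's ratio for Nnt.

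Median signals were corrected with normexp (offset 50) and normalised by loess in limma 3.58.1 under R 4.3.3, with controls at weight 0 and outlier-flagged spots left out. A probe entered the test with Cy5 well above background on 4 or more of 8 arrays and 3 or more values per group, and the brightest probe stood for a gene. The two-sided test was lmFit with eBayes, and p-values were adjusted by Benjamini-Hochberg over all 16776 genes and unnamed probes. The number of arrays limits the precision. No spot was saturated.

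Nnt and the lists were chosen with earlier results of these data known. Genes named are all Nnt probes, a fixed set, the 2 list members with the smallest p, the nearest genes on each side and the 5 most and least alike. Not every gene this rule takes is given. Names came from RefSeq accessions or the table's symbols. The alternatives tried changed the background, normalisation, flags, filter, slide, replicate block, channel and samples used. Same-numbered samples deviated together with correlations of -0.00, 0.06, 0.01 and -0.02. No pairing by number was seen, though values near 0 cannot exclude one.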

Additional observations from a re-analysis of the deposited data

Results flagged for a closer look

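In 2 of 36 groups of 4 samples examined, among the genes named, 1 sample stood far from the other 3. Chance flags about 1 in 20 groups. Mthfd1l read -0.65 in WT replicate 2, against -0.38 to -0.33 in the other WT samples. Nmnat3 read -0.74 in WT replicate 4, against -0.25 to -0.15 in the other WT samples. No Nnt probe met this rule.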

How the results depend on the processing

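The count of all genes called in limma was 2. It was 4 with a normexp offset of 16, and 1 with Agilent's processed signals (with loess and as deposited), with median centring, with flagged spots kept and in the authors' table. It was 0 within slide 1 and within slide 2, where 1273 and 1269 had an unadjusted p under 0.05 with 2 samples a group, and 2 to 4 when each sample was left out, with 4 without miR-223KO replicate 1. The count of listed and of neighbouring genes called was 0 under all 23 alternatives. For Nnt, A_52_P395228 (1.51 from 1 miR-223KO sample) gave 1.13 with flagged spots kept, 1.24 in the authors' table, 1.91 in Cy5 alone and 0.40 in Cy3 alone (the reference channel). A_51_P113395 (0.93) gave 1.38 within slide 1, 0.47 within slide 2 and -0.18 in Cy3 alone. A_51_P113399 (0.47) gave 1.44 within slide 1 and -0.51 within slide 2. With the replicate number as a block, the count stayed at 2 and the probes gave 1.69, 0.93 and 0.47, and it changed no call. Uncalled genes that changed sign were Me1 (0.0015 with processed signals and loess, 0.18 with median centring, 0.31 within slide 1), Me3 (0.076 with median centring), Mrps30 (0.084 with median centring, 0.035 within slide 2), Prdx3 (0.17 with median centring, 0.19 within slide 2), Glrx5 (-0.18) and Nmnat3 (-0.056) within slide 1, and Wdfy1 (-0.084), Paip1 (-0.32) and Tmem267 (-0.10) within slide 2. Leaving out samples gave -0.26 to 0.33 for Paip1, -0.19 to 0.063 for Mrps30, -0.29 to 0.26 for Me1 and -0.32 to 0.084 for Prdx3. Values over 1.5 times the reported one included those of Mthfd1l (1.48), G6pdx (0.57), Aldh1l2 (-0.57), Me3 (-0.30), Wdfy1 (0.51) and Tmem267 (0.71) in the authors' table, and of Glrx5 (1.06), Idh2 (0.53), Pgd (0.51) and Paip1 (0.25) with median centring. The causes were not tested. A_52_P395228 rests on flagged spots, and the slides hold 2 samples a group. All Nnt spots were well above background, and the part of signal strength in the differences was not tested.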
